A study of Mus musculus with 9 samples.

Results

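The genes described here encode the oxygen-sensing machinery that controls the hypoxia-inducible factors (HIF): Vhl, Hif1a, Epas1, Arnt, Egln1, Egln2, Egln3 and Hif1an. They were the 8 rows with these gene names among 54532 genes counted when poly(A) RNA was sequenced from RENCA, a mouse renal carcinoma cell line. Cells of 3 groups were compared, with 3 libraries in each. Empty-vector cells are labelled wild type for Ndufa4l2 and treated with an empty vector. Knockout cells are labelled NDUFA4L2 -/-; they came from colonies of single cells after editing with 1 guide in a Cas9 plasmid, screened by qPCR, and the labels do not say how many clones were sequenced. The series' text gives 2 knockout replicates, where the labels and the count table hold 3, all used here. Rescue cells are labelled NDUFA4L2 +/+ and carry a lentivirus that re-expresses the gene in knockout cells, under puromycin selection. All groups were grown in the same medium, and the sources used here do not give the oxygen level of the cultures. Loss or return of Ndufa4l2 cannot be told apart from editing, clone choice, lentivirus or puromycin. The labels do not say whether libraries of a group came from separate cultures, so the spread behind each p-value is that between libraries and may be technical.

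In cells with enough oxygen, the prolyl hydroxylases EGLN1, EGLN2 and EGLN3 hydroxylate prolines of the HIF alpha subunits, which are then bound by VHL, the substrate-recognition subunit of a ubiquitin ligase, and degraded. Asparagine hydroxylation by HIF1AN (also called FIH) blocks binding of coactivators to HIF alpha. When oxygen falls, HIF1A or EPAS1 (HIF-2 alpha) pairs with ARNT and activates genes of glycolysis, angiogenesis and oxygen supply. Loss of VHL is the classic lesion of human clear cell renal carcinoma, where EPAS1 is known as a driver, and NDUFA4L2 itself is known as a HIF target. Because HIF alpha is controlled mainly through protein stability, these mRNA levels do not measure HIF protein or activity.

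Sequencing depth, as the total count per library, ran from 13106531 to 26643877 counts. Ndufa4l2 had 12, 6 and 16 counts in empty vector, 7, 8 and 6 in knockout and 73, 48 and 35 in rescue, so that it rose in rescue, while at these counts it does not check the knockout label (log2 change 2.57 ± 0.34 for rescue against knockout, SE, edgeR quasi-likelihood test with Benjamini-Hochberg adjustment over all tested genes, adjusted p = 2.2e-06; -0.36 ± 0.42 for knockout against empty vector, edgeR adjusted p = 0.47). Ndufa4l2 shares 32 bases with Shmt2 on the other strand, a gene with 9237 to 19469 counts per library. The strand setting of the counts is unknown, and the part of Shmt2 reads in the Ndufa4l2 counts was not tested. Mitochondrially encoded genes took 5.79 to 7.93% of the counts in knockout, 2.16 to 3.17% in empty vector and 2.24 to 2.65% in rescue. Of 9 epithelial and renal tubule markers 7 had enough counts to be tested, with a summed level of 991 to 1215 counts-per-million (CPM, scaled by TMM, a trimmed mean of ratios between libraries) in empty vector, 1607 to 1734 in knockout and 1325 to 1375 in rescue; Epcam was at 0 in empty vector and knockout. Summed leukocyte markers lay at 77.0 to 83.2, 202.5 to 220.7 and 37.5 to 43.3 CPM in the same order, where Adgre1, Cd3e and Itgam were at 0 in all libraries and 3 of 8 markers were tested. Nearly all of that sum was 1 gene, Cd68, a lysosomal protein gene (76.2 ± 3.602, 204.8 ± 9.57 and 35.9 ± 3.16 CPM, SD, n = 3), with Csf1r at 1.08, 3.87 and 1.38 and Cd79a at 2.94, 4.43 and 2.59 CPM, while the general leukocyte gene Ptprc had at most 2 counts in a group and Tyrobp at most 1. The 6 endothelial markers together stayed between 0.274 and 1.84 CPM, with 1 tested and Kdr and Emcn at 0. Of 5 fibroblast and pericyte markers 1 was tested. Summed fibroblast and pericyte markers were 24.9 to 31.2 CPM in empty vector, 53.9 to 64.8 in knockout and 24.3 to 25.6 in rescue, with Lum at 0 throughout; this was Pdgfrb almost alone (27.8 ± 3.20, 59.2 ± 5.43 and 24.8 ± 0.750 CPM), and Pdgfra, Dcn and Rgs5 had at most 3 counts in a group. The leukocyte sum and the fibroblast and pericyte sum therefore describe single genes and not a class of markers. The part of these differences in the results below was not tested, and fewer cells of a type cannot be told apart from less RNA per cell.

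Of the 8 genes, 6 passed edgeR's filter on low counts and were tested, with calls at an adjusted p under 0.05 (Hif1a, Arnt, Vhl, Egln1, Egln2 and Hif1an). Epas1 and Egln3 were at or near 0 in all 9 libraries. The 6 tested genes differed in pattern: Hif1a was higher in rescue than in both other groups, Arnt was lower in knockout and in rescue than in empty vector, Egln1, Egln2 and Hif1an were higher in both than in empty vector, and Vhl was lower in knockout than in the others. Among these 6 genes and 3 comparisons the largest change was 0.58 log2 units, or 1.50-fold, for Hif1a in rescue against empty vector.

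**Figure D1:**
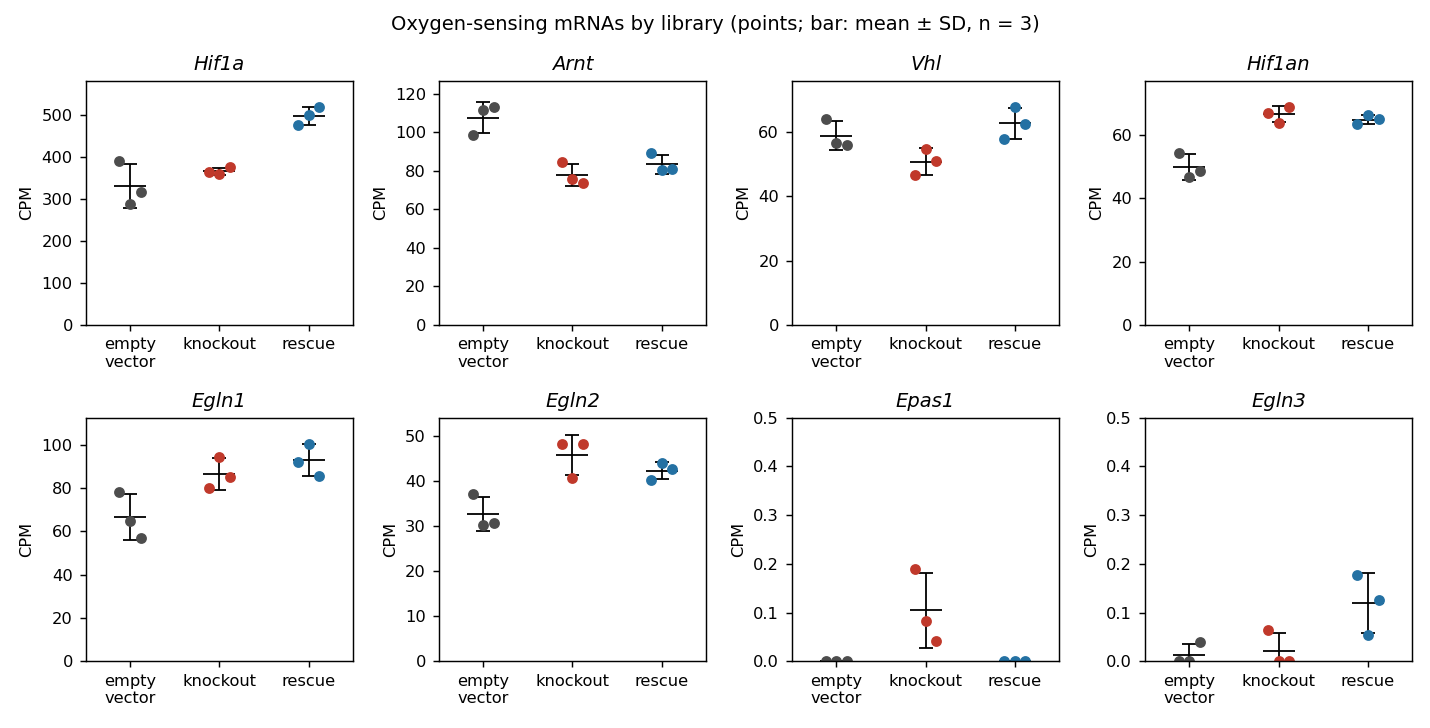
Level of the 8 oxygen-sensing mRNAs in each library (points) in counts-per-million, with the mean and SD of 3 libraries per group; each panel has its own axis from 0. Hif1a is highest in the 3 rescue libraries (475.0 to 518.3 CPM), Arnt is highest in empty vector (98.4 to 113 CPM), and Epas1 and Egln3 stay under 0.2 CPM.

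Among the HIF alpha subunit genes, Hif1a alone had enough counts to be tested. Hif1a (chromosome 12, 73901375 to 73947530, plus strand, mm10) stood at 390.1, 288.6 and 315.8 CPM in the empty-vector libraries, 362.7, 359.6 and 375.5 in those of knockout and 475.0, 499.5 and 518.3 in those of rescue. All rescue libraries lay above all others, while 1 empty-vector library (replicate 1) lay above and 2 below the knockout libraries. The rise of Hif1a in rescue was 0.58 ± 0.09 log2 units over empty vector (SE; edgeR adjusted p = 2.3e-05) and 0.44 ± 0.09 over knockout (edgeR adjusted p = 0.00024). Knockout did not pass against empty vector (0.14 ± 0.09, edgeR adjusted p = 0.16). Without empty-vector replicate 1 this difference passed, at 0.29 (edgeR adjusted p = 0.0001). An antisense gene, Gm15283, spans Hif1a on the other strand with 18 to 38 counts per library against 4358 to 13340 for Hif1a, and the strand setting of the counts is unknown.

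Epas1 (chromosome 17, 86753907 to 86833410, plus strand, mm10), which encodes HIF-2 alpha, had no count in the empty-vector and rescue libraries and 3, 1 and 1 counts in knockout. A count of 0 among 61451491 in empty vector and 59237396 in rescue allows up to 0.0488 and 0.0506 CPM of raw totals (3 counts over the group), and the 5 counts of knockout came to 0.0897 CPM of raw totals, with an exact 95% Poisson interval of 0.0291 to 0.209. These limits cover counting error only. Per base of gene length and summed over a group, Hif1a was at least 6354-fold higher than Epas1 in empty vector and at least 9219.9-fold higher in rescue, and the ratio in knockout was 3419.7 (95% counting interval 1465 to 10533). Fitted without the filter on low counts, the Epas1 difference did not pass in knockout against empty vector (edgeR adjusted p = 0.083) or in rescue against knockout (edgeR adjusted p = 0.088). The third alpha subunit gene, Hif3a, had 0 to 2 counts per library.

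Arnt, the shared partner of HIF alpha subunits (chromosome 3, 95434388 to 95497240, plus strand, mm10), was lower in knockout and rescue. It stood at 98.4, 112 and 113 CPM in the empty-vector libraries, 84.4, 75.9 and 73.5 in those of knockout and 89.2, 80.2 and 80.8 in those of rescue, so that all empty-vector libraries lay above all others. Its fall in knockout, -0.47 ± 0.07 on the log2 scale (SE), had an edgeR adjusted p = 1.3e-05, and in rescue against empty vector the change was -0.37 ± 0.07 (edgeR adjusted p = 0.00029). Rescue and knockout overlapped (0.10 ± 0.07, edgeR adjusted p = 0.25). Its paralogue Arnt2 had 0 to 11 counts per library. On the FPKM scale, where the authors corrected fragment counts for gene length and depth, the ratio of Hif1a to Arnt was 5.38, 3.51 and 3.79 in empty vector, 5.84, 6.43 and 6.94 in knockout and 7.24, 8.46 and 8.72 in rescue. The 3 groups did not overlap in this ratio, which was computed after the values were seen and was not tested.

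**Figure D2:**
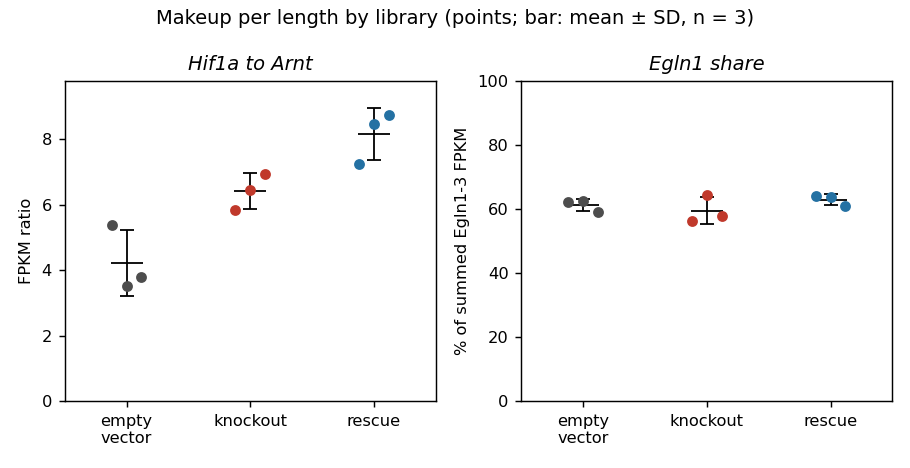
Left: ratio of Hif1a to Arnt FPKM in each library (points; bar and whiskers: mean ± SD, n = 3), 3.51 to 5.38 in empty vector, 5.84 to 6.94 in knockout and 7.24 to 8.72 in rescue. Right: share of Egln1 in the summed FPKM of Egln1, Egln2 and Egln3, between 56.3 and 64.4% in all 9 libraries.

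Vhl (chromosome 6, 113623959 to 113631633, plus strand, mm10) was at 64.2, 56.5 and 56.0 CPM in the empty-vector libraries, 46.7, 54.8 and 51.1 in those of knockout and 58.0, 67.8 and 62.5 in those of rescue. Knockout libraries lay below all others, by a narrow margin for replicate 2, and empty vector and rescue overlapped. From knockout to rescue, Vhl rose by 0.30 ± 0.08 on the log2 scale (SE; edgeR adjusted p = 0.0024). Rescue and empty vector did not differ beyond the spread (0.09 ± 0.08, edgeR adjusted p = 0.36). Knockout against empty vector gave -0.22 ± 0.08 (edgeR adjusted p = 0.023), a call that was lost without empty-vector replicate 1 (-0.14, edgeR adjusted p = 0.11), without knockout replicate 1 (-0.16, edgeR adjusted p = 0.12), without knockout replicate 3 (-0.22, edgeR adjusted p = 0.051) and in DESeq2 (adjusted p = 0.074). In the authors' deposited table this comparison has an adjusted p of 0.083. Without empty-vector replicate 1, the difference of rescue from empty vector passed (0.18, edgeR adjusted p = 0.039).

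The 3 prolyl hydroxylase genes fell into 2 that were well expressed and 1 that was nearly silent. Egln1, which encodes the main oxygen sensor PHD2 (chromosome 8, 124908587 to 124949324, minus strand, mm10), stood at 78.1, 64.9 and 57.1 CPM in the empty-vector libraries, 79.9, 94.2 and 85.2 in those of knockout and 92.1, 100.4 and 85.7 in those of rescue. All knockout and rescue libraries lay above empty vector, with replicate 1 of empty vector close to the lowest knockout library. It rose by 0.37 ± 0.10 log2 units in knockout (SE; edgeR adjusted p = 0.0061) and by 0.48 ± 0.10 in rescue against empty vector (edgeR adjusted p = 0.0015), while rescue and knockout overlapped (0.10 ± 0.10, edgeR adjusted p = 0.40). Scaled by library totals alone, the change in knockout no longer passed (0.22, edgeR adjusted p = 0.056).

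Egln2, which encodes PHD1 (chromosome 7, 27158658 to 27166802, minus strand, mm10), was at 37.1, 30.3 and 30.6 CPM in the empty-vector libraries, 48.3, 40.6 and 48.2 in those of knockout and 40.2, 44.0 and 42.7 in those of rescue. Here too every knockout and rescue library exceeded every empty-vector library. The rise was 0.49 ± 0.09 log2 units in knockout (SE; edgeR adjusted p = 7.1e-05) and 0.37 ± 0.09 in rescue against empty vector (edgeR adjusted p = 0.0016), with rescue against knockout at -0.12 ± 0.09 (edgeR adjusted p = 0.25). Egln1 made up 61.3% ± 1.82 of the summed FPKM of the 3 hydroxylase genes in empty vector (SD, n = 3), 59.5% ± 4.29 in knockout and 63.0% ± 1.77 in rescue, and Egln2 made up nearly all of the rest.

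Egln3 encodes PHD3 and is widely known as a hypoxia-induced gene (chromosome 12, 54178981 to 54203860, minus strand, mm10). It had 0, 0 and 1 counts in empty vector, 1, 0 and 0 in knockout and 5, 1 and 2 in rescue. Summed over the libraries of empty vector, knockout and rescue this came to 0.0163, 0.0179 and 0.135 CPM of raw totals, with exact 95% Poisson intervals of 0.000412 to 0.0907, 0.000454 to 0.1 and 0.0583 to 0.266. Fitted without the filter on low counts, Egln3 passed in none of the 3 comparisons (edgeR adjusted p = 0.2 for rescue against empty vector), so a difference was not detectable at this depth. Per base of gene length, Egln1 exceeded Egln3 by a factor of 536 in rescue (95% counting interval 272 to 1242), and by 3107 (557 to 122755) and 3278 (588 to 129483) in empty vector and knockout. The share of Egln3 in the hydroxylase FPKM was 0.0187%, 0.0201% and 0.112% in empty vector, knockout and rescue. Exact two-sided permutation tests gave p = 0.2 for rescue against knockout, p = 0.2 for rescue against empty vector and p = 1 for knockout against empty vector, where 3 libraries against 3 cannot go below 0.1.

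Hif1an, which encodes the asparagine hydroxylase (chromosome 19, 44562850 to 44576274, plus strand, mm10), was higher outside empty vector. It was at 54.5, 46.8 and 48.7 CPM in the empty-vector libraries, 67.1, 64.0 and 69.0 in those of knockout and 63.6, 66.3 and 65.2 in those of rescue. Empty vector lay below all other libraries. It rose by 0.42 ± 0.07 log2 units in knockout (SE; edgeR adjusted p = 2.3e-05) and by 0.38 ± 0.07 in rescue against empty vector (edgeR adjusted p = 0.00012), and rescue and knockout overlapped (-0.04 ± 0.07, edgeR adjusted p = 0.63).

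Promoter sequence was read for the 3 hydroxylase genes that were higher in knockout and rescue than in empty vector and for the nearly silent Egln3. The HIF binding core is ACGTG or GCGTG, searched on both strands; a CACGTG holds ACGTG on each strand and counts as 2 matches. Each window runs from 250 bases before to 50 after a RefSeq gene start (GRCm38.p6), 5′ to 3′ on the strand of the gene, with matches in capitals.
Egln1 (chr8:124949205-124949504, minus strand): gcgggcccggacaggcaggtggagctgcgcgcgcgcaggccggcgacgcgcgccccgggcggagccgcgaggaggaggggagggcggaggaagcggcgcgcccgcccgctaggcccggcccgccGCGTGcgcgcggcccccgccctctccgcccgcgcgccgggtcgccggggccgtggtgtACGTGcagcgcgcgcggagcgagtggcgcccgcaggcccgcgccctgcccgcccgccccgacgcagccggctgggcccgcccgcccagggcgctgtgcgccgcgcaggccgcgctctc
Egln2 (chr7:27166753-27167052, minus strand): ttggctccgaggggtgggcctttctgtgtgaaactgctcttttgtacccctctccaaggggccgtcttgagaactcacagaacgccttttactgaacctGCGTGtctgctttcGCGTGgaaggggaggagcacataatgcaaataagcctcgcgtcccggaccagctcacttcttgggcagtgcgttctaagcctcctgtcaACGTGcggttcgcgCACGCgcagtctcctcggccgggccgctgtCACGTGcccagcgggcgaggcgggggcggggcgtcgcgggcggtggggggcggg
Hif1an (chr19:44562604-44562903, plus strand): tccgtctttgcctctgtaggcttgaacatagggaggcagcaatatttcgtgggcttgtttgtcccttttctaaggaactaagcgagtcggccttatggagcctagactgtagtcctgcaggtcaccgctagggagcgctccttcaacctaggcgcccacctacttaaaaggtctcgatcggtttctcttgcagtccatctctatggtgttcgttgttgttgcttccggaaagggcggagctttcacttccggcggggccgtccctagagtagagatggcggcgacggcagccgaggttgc
Egln3 (chr12:54203825-54204124, minus strand): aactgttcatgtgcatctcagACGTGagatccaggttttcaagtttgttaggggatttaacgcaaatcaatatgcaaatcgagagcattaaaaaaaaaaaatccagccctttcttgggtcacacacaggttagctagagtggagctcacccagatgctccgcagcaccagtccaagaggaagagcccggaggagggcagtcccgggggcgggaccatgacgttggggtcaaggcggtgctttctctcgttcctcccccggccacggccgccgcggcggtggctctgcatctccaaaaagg

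The Egln2 window held 3 ACGTG and 3 GCGTG matches, among them a CACGTG across the start site (bases -4 to 2, counted from 1 at the start site with no 0). Egln1 held 1 of each, with ACGTG at -68 to -64. Egln3 held 1 ACGTG, at -229 to -225, and Hif1an held none. Over 32851 RefSeq promoter windows of the same length, 19.6% held ACGTG, 32.4% GCGTG and 43.8% either, so a match is common, and it is a description of sequence and not a binding site. Egln1 had 60 CpG dinucleotides in its window, Egln2 29, Hif1an 19 and Egln3 16, where the median of all windows was 7. In the window of Hif1a at its RefSeq start (chr12:73907617-73907916) there were 3 ACGTG matches, that of Arnt held 1 GCGTG, and that of Vhl held none. A second RefSeq start of Egln2 (chr7:27165679-27165978) had 1 GCGTG and no ACGTG.

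**Figure D3:**
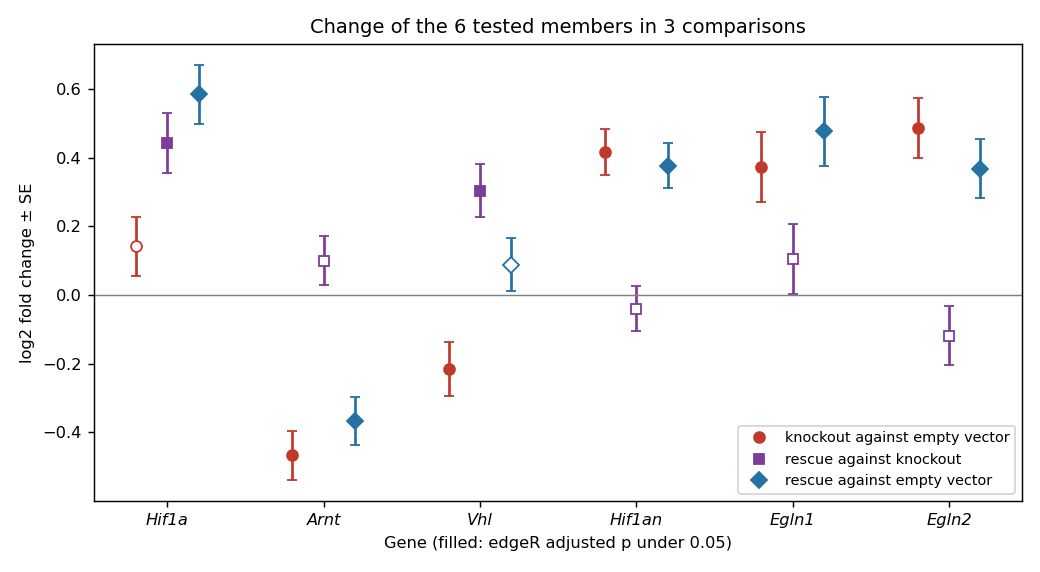
Log2 fold change ± SE of the 6 tested genes in the 3 comparisons; filled symbols have an edgeR adjusted p under 0.05. Egln1, Egln2 and Hif1an lie between 0.37 and 0.49 in both comparisons with empty vector and near 0 in rescue against knockout, while Hif1a is filled in the 2 comparisons that involve rescue.

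Counted over the comparison, 3 of the 6 tested genes rose and 2 fell in knockout against empty vector, 4 rose and 1 fell in rescue against empty vector, and 2 rose and none fell in rescue against knockout. A call is frequent in these data: 60.6% of 13326 tested genes passed in knockout against empty vector (29.5% higher, 31.1% lower), 47.5% in rescue against empty vector (22.4% higher, 25.1% lower) and 56.8% in rescue against knockout (29.5% higher, 27.3% lower). Libraries of the groups compared did not overlap for 5, 5 and 2 of the 6 genes in the same order, against 63.7%, 55.1% and 65.3% of all tested genes. The 2 comparisons with empty vector share those libraries, and the 2 with knockout share theirs. Scaled by library totals alone, all genes had a median in rescue against knockout that moved from 0.03 to 0.22, and 4 of the 6 genes passed, with Arnt at 0.29 (edgeR adjusted p = 0.0022) and Egln1 at 0.29 (edgeR adjusted p = 0.014). In the authors' deposited table Hif1a has a log2 change of 0.60 in rescue against empty vector and Arnt of -0.46 in knockout against empty vector.

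Ordered by FPKM, which corrects for gene length, Hif1a led in empty vector (55.7 ± 9.42; SD, n = 3), knockout (62.1 ± 1.28) and rescue (83.9 ± 3.75). In empty vector it was followed by Vhl (19.5 ± 1.71) and Egln1 (18.4 ± 3.09), whose ranges overlapped, then by Arnt (13.3 ± 0.879) and Egln2 (11.6 ± 1.48), which overlapped too, and by Hif1an (7.49 ± 0.678). In knockout Egln1 (24.1 ± 2.01) stood above Vhl (17.0 ± 1.34) and Egln2 (16.3 ± 1.58), which overlapped with each other, and Hif1an (10.1 ± 0.364) and Arnt (9.74 ± 0.744) could not be ordered. In rescue the order was Egln1 (25.7 ± 2.07), Vhl (20.8 ± 1.66) and Egln2 (15.0 ± 0.721) without overlap, and Arnt (10.4 ± 0.606) and Hif1an (9.79 ± 0.227) overlapped. Arnt thus stood above Hif1an without overlap in empty vector and overlapped with it in the other groups.

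Beyond Vhl itself, genes of its ubiquitin ligase split in direction in knockout against empty vector. All 12 genes of a list of ligase subunits, neddylation factors and VHL-binding proteins were tested: 3 rose and 6 fell in knockout against empty vector (median -0.19), and 8 rose and 1 fell in rescue against knockout (median 0.28), against a median of -0.02 and 0.03 over all tested genes. That is 75% of the list in each, where 60.6% and 56.8% of all tested genes passed. By direction, 29.5% of all tested genes were higher and 31.1% lower in knockout against empty vector. In rescue against knockout 29.5% were higher and 27.3% lower. Cul2, the cullin scaffold, passed in none of the 3 comparisons (-0.10 ± 0.06 in knockout against empty vector and -0.11 ± 0.06 in rescue against empty vector, SE; edgeR adjusted p = 0.16 and 0.17). Cand1, a cullin exchange factor, went from 171 ± 22.7 CPM in empty vector to 282 ± 11.1 in knockout (SD, n = 3; edgeR adjusted p = 1.2e-07) and 263 ± 7.13 in rescue. Cops5, the deneddylating subunit of the COP9 signalosome, went from 109 ± 2.61 to 74.1 ± 2.11 and back to 101 ± 2.82 CPM, with a log2 change of -0.56 ± 0.06 in knockout (SE; edgeR adjusted p = 6.9e-08), rising again in rescue by 0.45 ± 0.06 (edgeR adjusted p = 1.6e-06). Vbp1, a VHL-binding prefoldin subunit, rose by 0.78 ± 0.06 in rescue against knockout (edgeR adjusted p = 3.2e-09), and the elongin C gene Eloc by 0.53 ± 0.07 (edgeR adjusted p = 1.7e-06). The VHL-interacting deubiquitinases ran in opposite directions in knockout, with Usp20 up by 0.61 ± 0.06 (edgeR adjusted p = 1.4e-07) and Usp33 down (-0.47 ± 0.07, edgeR adjusted p = 1.6e-05). In rescue against empty vector 5 rose and none fell, among them the RING subunit gene Rbx1 (0.46 ± 0.06, edgeR adjusted p = 3.7e-06); that is 41.7% of the list, where 47.5% of all tested genes passed, and the count was 3 without empty-vector replicate 3, without rescue replicate 3 or without the filter on low counts.

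Of 26 partners and regulators of HIF, 19 were tested. In knockout against empty vector 6 rose and 6 fell (median -0.03), in rescue against knockout 8 rose and 3 fell (median 0.12), and in rescue against empty vector 5 rose and 5 fell (median -0.08). The shares passing in either direction, 63.2%, 57.9% and 52.6%, were near those of all tested genes (60.6%, 56.8% and 47.5%). Counts taken in either direction thus set nothing apart about the list. The cytosolic HSP90 genes, whose proteins chaperone HIF1A, rose in all 3 comparisons: Hsp90ab1 went from 1602 ± 294 CPM in empty vector to 2869 ± 124 in knockout and 4057 ± 101 in rescue (SD, n = 3), and Hsp90aa1 from 1274 ± 138 to 1861 ± 72.7 and 2973 ± 93.5. Both rose in rescue against empty vector, by 1.34 ± 0.10 and 1.22 ± 0.08 log2 units (SE; edgeR adjusted p = 6.8e-09 and 1.3e-09). Os9, an endoplasmic reticulum lectin also reported to bind HIF1A and EGLN proteins, went from 227 ± 18.2 to 393 ± 7.37 and 201 ± 7.71 CPM. Siah2, a ubiquitin ligase for EGLN proteins, rose in rescue against empty vector by 0.85 ± 0.11 (edgeR adjusted p = 2.6e-05), and Cited2, which competes with HIF for coactivators, by 0.44 ± 0.06 (edgeR adjusted p = 8.9e-06). Siah2 also rose in knockout against empty vector (0.76 ± 0.11, edgeR adjusted p = 4.7e-05), while Cited2 did not pass there (-0.05 ± 0.06, edgeR adjusted p = 0.5). The coactivator gene Ncoa1 fell in knockout by 0.81 ± 0.07 (edgeR adjusted p = 9.3e-09), as did Siah1b by 0.64 ± 0.07 (edgeR adjusted p = 4.8e-07). Against empty vector, Ncoa1 was lower in rescue too (-0.43 ± 0.07, edgeR adjusted p = 4e-05), while Siah1b did not pass (-0.05 ± 0.07, edgeR adjusted p = 0.61). Ahr had no count in any library, and Ahrr, Cited1 and Cited4 had at most 2.

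Other oxygen-dependent dioxygenases, which like the EGLN proteins use molecular oxygen, were counted from a list of 23, of which 20 were tested. In knockout against empty vector 10 rose and 3 fell (median 0.17), in rescue against knockout 3 rose and 7 fell (median -0.09), and in rescue against empty vector 5 rose and 4 fell (median -0.01). Taken in either direction these are 65%, 50% and 45% of the tested list, near the 60.6%, 56.8% and 47.5% of all tested genes. By direction, 29.5% of all tested genes were higher and 31.1% lower in knockout against empty vector. In rescue against knockout 29.5% were higher and 27.3% lower. The histone demethylase gene Kdm5b went from 8.31 ± 0.266 CPM in empty vector to 27.5 ± 1.10 in knockout and 6.07 ± 0.823 in rescue (SD, n = 3), which is a rise of 1.72 ± 0.10 log2 units (SE; edgeR adjusted p = 5.4e-11) followed by a change of -2.195 ± 0.11 (edgeR adjusted p = 2.9e-12). The collagen lysyl hydroxylase genes Plod1 and Plod3 rose in knockout by 0.91 ± 0.08 and 0.66 ± 0.07 and had changes of -1.04 ± 0.08 and -0.99 ± 0.07 in rescue against knockout (edgeR adjusted p from 9.8e-10 to 2.2e-07). Plod2 had at most 1 count. The RNA demethylase genes Fto and Alkbh5 rose in rescue against empty vector by 0.38 ± 0.08 and 0.44 ± 0.06 (edgeR adjusted p = 0.00097 and 1.2e-05), as did Jmjd6 by 0.43 ± 0.06 (edgeR adjusted p = 1.2e-05). In knockout against empty vector Fto fell (-0.33 ± 0.085, edgeR adjusted p = 0.0028) and Alkbh5 rose (0.34 ± 0.06, edgeR adjusted p = 9.6e-05). Jmjd6 did not pass there (0.09 ± 0.06, edgeR adjusted p = 0.2).

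Genes known as HIF targets were mostly higher in rescue than in empty vector. Of 30 listed, 27 were tested, and 17 rose and 4 fell in rescue against empty vector (median 0.49, against -0.02 over all tested genes). In all 77.8% of the list passed, where 47.5% of all tested genes did (22.4% higher, 25.1% lower). In rescue against knockout 14 rose and 1 fell (median 0.28), and in knockout against empty vector 8 rose and 9 fell (median -0.05). The shares passing in either direction, 55.6% and 63%, were near the 56.8% and 60.6% of all tested genes. By direction, 29.5% of all tested genes were higher and 27.3% lower in rescue against knockout. Without the glycolysis genes of the list the counts were 10 and 3 of 16, 7 and 1, and 6 and 6, with medians of 0.52, 0.14 and -0.19. Pdk1, which encodes an inhibitory kinase of pyruvate dehydrogenase, went from 40.9 ± 3.96 CPM in empty vector to 32.9 ± 1.54 in knockout and 62.3 ± 5.66 in rescue (SD, n = 3). Its rise from knockout to rescue was 0.92 ± 0.08 log2 units (SE, edgeR adjusted p = 1.4e-08). Edn1, the vasoconstrictor endothelin, stood at 19.8 ± 0.390, 7.10 ± 0.934 and 32.5 ± 3.78 CPM. The glycolytic gene Pgk1 stood at 858 ± 78.1, 583 ± 32.8 and 1154 ± 33.5 CPM.

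Several targets had other patterns. Adm, adrenomedullin, stood at 259.9 ± 23.2, 80.5 ± 4.53 and 161 ± 10.7 CPM, below empty vector in knockout and in rescue (-0.69 ± 0.07, SE; edgeR adjusted p = 3.5e-07). Lox, the collagen crosslinker, was high in knockout (27.9 ± 7.31, 217 ± 7.23 and 48.4 ± 2.37 CPM), and Ddit4, an inhibitor of mTORC1, was raised in knockout and rescue alike (278 ± 18.6, 511 ± 34.3 and 506 ± 52.7 CPM). Car9, a classic HIF-1 target, did not differ beyond the spread, at 1.02 ± 0.355, 0.888 ± 0.293 and 0.962 ± 0.0978 CPM; it and Vegfa (777 ± 42.1, 581 ± 36.4 and 550.0 ± 19.7 CPM) are given as familiar markers chosen after their values were seen. Of 9 genes linked to HIF-2 in renal carcinoma and other tissues, 3 were tested. Tgfa, Pou5f1, Igfbp3 and Cxcr4 had no count in any library, Epo had at most 2 and Angpt2 had 6 to 15. The cyclin D1 gene Ccnd1 fell in knockout by 1.81 ± 0.08 (edgeR adjusted p = 6.7e-13) and rose in rescue against knockout by 1.35 ± 0.08 (edgeR adjusted p = 3.2e-11). Scarb1, a lipoprotein receptor, fell in rescue against empty vector (-0.44 ± 0.06, edgeR adjusted p = 5.1e-06); its smaller change in rescue against knockout (-0.15 ± 0.06, edgeR adjusted p = 0.039) turned positive with library totals alone as the scale.

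**Figure D4:**
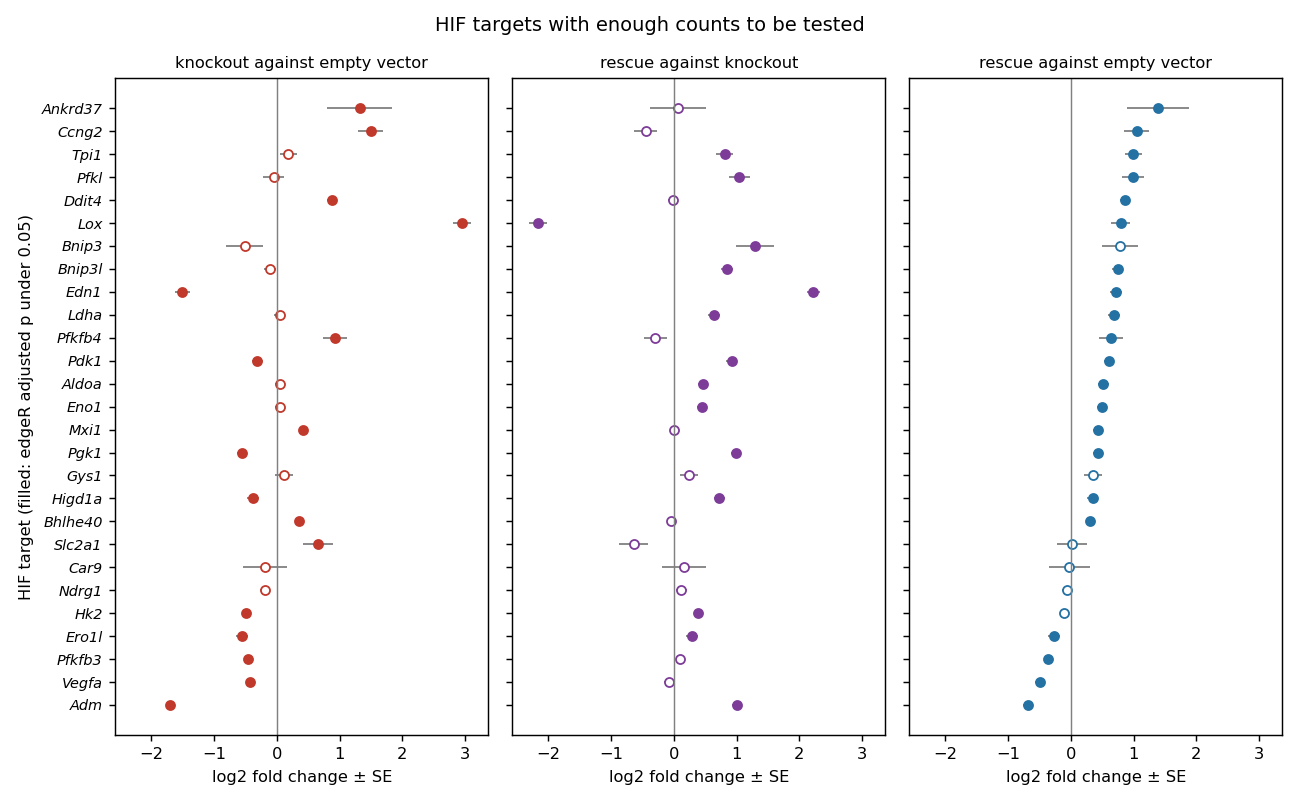
Log2 fold change ± SE of the 27 tested HIF targets in the 3 comparisons, ordered by rescue against empty vector; filled points have an edgeR adjusted p under 0.05. In rescue against empty vector 17 filled points lie above 0 and 4 below, and in knockout against empty vector 8 lie above and 9 below.

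The genes whose level followed a member most closely over the 9 libraries were sought for the 2 tested members with the widest range between groups. Likeness was the root mean square difference of log2 CPM after centring each gene. Nearest to Hif1a were Mrpl15, a mitochondrial ribosomal protein gene (0.04), Ran, a nuclear transport GTPase (0.04), and the cytoplasmic actin gene Actb (0.05), which stood 0.20, 0.18 and 0.18 above empty vector in knockout and 0.56, 0.60 and 0.57 in rescue, where Hif1a stood 0.15 and 0.60 above it. Nearest to Egln1 were Twist2, a transcription factor of mesenchymal cells (0.08), Fam92a (0.08) and Hcfc1r1 (0.08).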

How the data were processed

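Poly(A) RNA of 9 RENCA libraries (3 groups of 3) was sequenced; the labels name the molecule genomic DNA, while their protocol describes mRNA. The deposited table holds raw counts per gene, FPKM values that the authors scaled per gene length, a gene length, log2 fold changes and p-values, per the file headers. The submitters' processing notes name CASAVA, HISAT, HISAT2, TopHat2 and mm10, with no role; the counter, its strand setting and the authors' test are not given in the sources used here.

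Counts were fitted with edgeR 4.0.16 (R 4.3.3; TMM scaling, filterByExpr, robust quasi-likelihood F-test, 1 mean per group, all 9 libraries), and p-values were adjusted by Benjamini-Hochberg over 13326 tested genes. The fit was tested on simulated data. Of simulated 1.5-fold changes it recovered 70.1% in knockout against empty vector, 74.6% in rescue against knockout and 71.6% in rescue against empty vector. False calls were 10 of 177, 12 of 175 and 11 of 187 in the same order. Limits for 0 counts use 3 counts, and intervals cover counting error only. Egln3 shares were compared by exact permutation; the planned test of the Epas1 to Hif1a ratio was not run, since Epas1 was at 0 in 2 groups. Alternatives were other scalings, no filter, DESeq2 1.42.0, only the 2 groups compared, a replicate block and each library left out. Promoters came from RefSeq (GRCm38.p6), which matched 7 of 8 members; coordinates of genes are those of the deposited table.

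Named genes were the members, Ndufa4l2, up to 4 tested genes with the smallest adjusted p per list and comparison, and the 3 most alike protein-coding genes for the 2 members of widest range. Genes outside this rule are Cul2, Car9, Vegfa and those named for their low counts. The values of 1 gene that the rule names are not reported here. The members and lists were chosen with earlier results of these data known.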

Additional observations from a re-analysis of the deposited data

How the results depend on the processing

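Over 270 alternative values of the 6 tested members, 261 kept their side of the threshold, 5 lost a call, 4 gained one and none reversed a call. Among the 261, differences that did not pass could change sign. Hif1an in rescue against knockout, at -0.04 in the main fit, ran from -0.07 to 0.15 under other scalings and fits. With library totals alone as the scale, 4 members instead of 2 passed in rescue against knockout. Leaving out each library gave 4 to 5 members in knockout against empty vector, 2 in rescue against knockout and 5 to 6 in rescue against empty vector, and 50 to 61, 44 to 51 and 41 to 51 genes of the 5 pathway lists. The difference in Egln3 share ran from -0.0187 to 0.0201 points for knockout minus empty vector, from 0.0637 to 0.124 for rescue minus knockout and from 0.0651 to 0.125 for rescue minus empty vector. Replicate numbers did not pair the libraries (same-number correlations -0.15 to 0.0454), and a replicate block left 5, 2 and 5 members and 52, 47 and 46 pathway genes passing in these comparisons, in the same order. Without its glycolysis genes, a choice made after seeing the data, the HIF target list had 8 genes passing in rescue against knockout and 13 in rescue against empty vector. The planned ratio of Epas1 to Hif1a was not run. Depth limits statements on Epas1 and Egln3, which had 0 to 5 counts per library.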
